A study of Mus musculus with 4 samples.

Results

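The TRAV3 family is a group of closely related V gene segments of the T cell receptor (TCR) alpha chain. Its members here were chosen by gene name: every assembled alpha chain whose V gene name starts with TRAV3-, TRAV3D- or TRAV3N-. Such a chain was found in 78 of the 659 cells with an alpha chain, 39 of 359 in one library and 39 of 300 in the other. The libraries come from whole tumours of MC38, a mouse colon carcinoma cell line, grown in C57BL/6J mice that all received anti-PD-1, which blocks a braking receptor on T cells. In one library the tumour cells were wild-type (WT), and in the other p53 had been knocked out in them with CRISPR-Cas9 (p53 KO). The mice's age and sex, the number of mice per library and whether the knockout line is 1 clone are not stated in the labels. Gene expression was not analysed here, so neither the knockout nor the type of the cells was checked.

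Each receptor pairs an alpha with a beta chain. An alpha chain is made by joining 1 V segment to 1 J segment. CDR1 and CDR2, the loops that lie mostly over the presenting molecule, are fixed by the V segment, while CDR3, the loop over the peptide, is written at the V to J junction. The alpha locus can rearrange more than once in a developing T cell. Early joins use V segments and J segments that lie near each other, and later joins reach outward on both sides.

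The WT library rested on 4280 unique molecular identifiers (UMIs, which count captured RNA molecules) in 408 cells, and the p53 KO library on 4138 in 392 cells. The TRAV3 chains rested on 289 and 207 of these. With 1 library per genotype there are no replicates, and nothing was tested. Cells and chains of 1 library are not replicates. Ranges after a share are its exact (Clopper-Pearson) 95% binomial bounds, for counting error alone, and intervals that lie apart are reported as a description. The libraries shared 0 cell barcodes.

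RefSeq places 8 TRAV3 genes on chromosome 14 in mm10 (GRCm38.p6), and 4 of them were found. In order toward the J segments these were TRAV3-1 (52580762 to 52581213), TRAV3D-3 (52972532 to 52973038), TRAV3-3 (53666005 to 53666506) and TRAV3-4 (53777071 to 53777576). All 4 are V segments, whose exons encode CDR1 and CDR2. The letter D or N in a name marks a copy in a duplicated stretch of the locus. TRAV3D-2 and TRAV3-2, annotated as pseudogenes, and the segments TRAV3N-2 and TRAV3N-3 had 0 contigs. All deposited contigs were productive, so the 0 for the pseudogenes gives no limit on their rearrangement. For TRAV3N-2, 3 cells were taken as the limit that a count of 0 allows. That limit is 0.836% of WT and 1.00% of p53 KO cells with an alpha chain. It holds only if chains of TRAV3N-2 would be named as such, which was not checked because the TCR reference is not given. The sequence of TRAV3N-3 was not used here, so whether some chains named TRAV3D-3 come from that copy cannot be told apart. Its count of 0 therefore gives no limit either.

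By their V-encoded loops the 4 genes form 2 pairs. The CDR1 and CDR2 bases of each gene are shown because these loops are what the family brings to a receptor whatever its J segment. They are written 5′ to 3′ as in the assembled chains, with capitals at bases that differ from TRAV3D-3.
TRAV3D-3 CDR1: gaccctaacagttattac
TRAV3-3 CDR1: gaccctaacagttattac
TRAV3-1 CDR1: gacAGtGCcaCtGCttac
TRAV3-4 CDR1: gacAGtGCcaCtGCttac
TRAV3D-3 CDR2: gttttctcaagtacggaaata
TRAV3-3 CDR2: gttttctcaagtacggaaata
TRAV3-1 CDR2: gtCCtTtcaaAtGTggaCaGa
TRAV3-4 CDR2: gtCttTtcaaAtGTggaCaGa

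TRAV3D-3 and TRAV3-3 thus carry the same loops, DPNSYY and VFSSTEI. TRAV3-1 and TRAV3-4 share the CDR1 DSATAY, and their CDR2, VLSNVDR and VFSNVDR, differ at 1 residue. Over the 267 bases from framework 1 to framework 3, TRAV3D-3 and TRAV3-3 differed at 4 bases and 4 residues, all in the framework. TRAV3-1 and TRAV3-4 differed at 6 bases and 4 residues. Across the pairs 26 to 28 bases differed, an identity of 89.5% to 90.3%. Each gene had 1 version of every region over all its contigs. None of these CDR1 or CDR2 loops was found in a contig of another TRAV family in either library.

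TRAV3D-3 and TRAV3-3 held nearly all of the family's cells. TRAV3D-3 was in 24 of 359 WT cells with an alpha chain (6.69%, 4.33 to 9.78) and in 17 of 300 p53 KO cells (5.67%, 3.34 to 8.92). TRAV3-3 was in 13 WT cells (3.62%, 1.94 to 6.11) and 18 p53 KO cells (6.00%, 3.59 to 9.32). TRAV3-1 was in 1 WT and 3 p53 KO cells, and TRAV3-4 in 1 cell of each. The WT count was higher for TRAV3D-3 and the p53 KO count higher for TRAV3-3, with overlapping intervals for both genes.

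**Figure D1:**
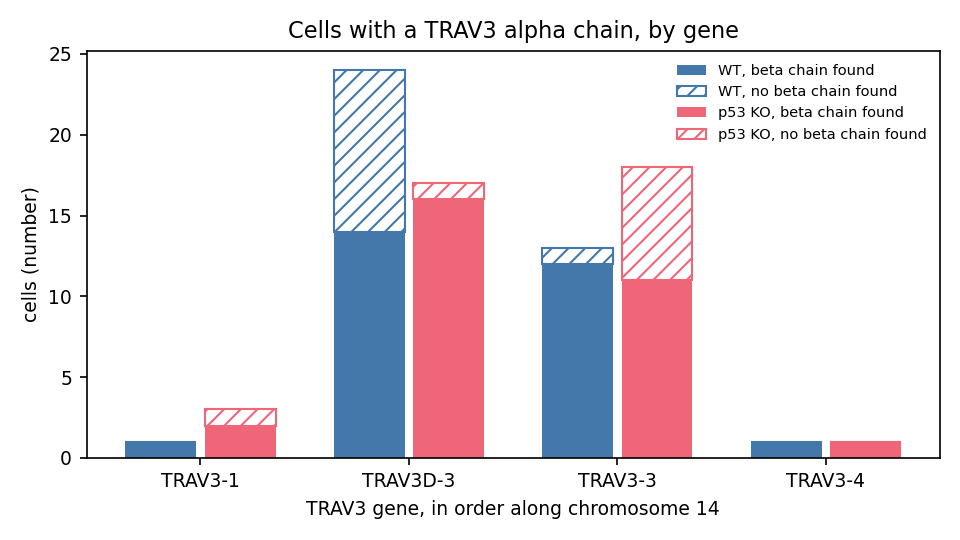
Number of cells with an alpha chain of each TRAV3 gene (x axis, in order along chromosome 14) in the WT (blue) and p53 KO (red) library. Filled bars are cells with a beta chain and hatched bars cells in which none was found, which were 10 of 24 TRAV3D-3 cells in WT and 7 of 18 TRAV3-3 cells in p53 KO.

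As a whole the family held 10.9% of WT cells with an alpha chain (7.84 to 14.6) and 13.0% in p53 KO (9.41 to 17.3). It ranked 4 of 19 TRAV families in WT, tied with TRAV9 and TRAV13, and 3 in p53 KO. Many of these cells repeat a chain, so each combination of V gene, J gene and CDR3 bases was also counted once and is called a distinct chain. The family had 20 of 271 distinct chains in WT (7.38%, 4.57 to 11.2) and 18 of 183 in p53 KO (9.84%, 5.93 to 15.1). By deposited clonotype identifiers it had 20 of 251 in WT and 26 of 184 in p53 KO, because some p53 KO chains were split over several identifiers. In p53 KO, TRAV3-3 had 6 distinct chains in 11 clonotypes and TRAV3D-3 had 9 in 12. In WT, TRAV3-3 had 8 distinct chains in 8 clonotypes and TRAV3D-3 had 10 in 10.

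The 3 families nearest in share of cells over both libraries were TRAV6, TRAV9 and TRAV14, with summed differences of 0.612, 4.67 and 7.18 percentage points. TRAV6, the nearest, was in 38 WT and 40 p53 KO cells but was built differently in WT, where it had 36 distinct chains against 20 for TRAV3. The share of TRAV6 cells in WT whose chain was found in 2 or more cells was 15.8% (6.02 to 31.3), against 66.7% for TRAV3 (26 of 39 cells, 49.8 to 80.9), and these intervals lie apart. TRAV9, at 46.2% (30.1 to 62.8), and TRAV14, at 48.1% (34.3 to 62.2), overlap TRAV3. All other TRAV genes together stood at 47.2% in WT (41.7 to 52.8), which overlaps the TRAV3 interval. Counting only the top alpha contig of each cell, the WT intervals lie apart, at 66.7% for TRAV3 (49.8 to 80.9) and 42.8% for the others (37.3 to 48.4). They overlap under the other settings tried. All these intervals treat cells as independent, but cells of the same chain enter this share together. The 26 TRAV3 cells in WT came from 7 distinct chains. The intervals are therefore too narrow, also where they lie apart. In p53 KO the share was 69.2% for TRAV3 (27 of 39, 52.4 to 83.0), 62.5% for TRAV6, 56.0% for TRAV9, 50.0% for TRAV14 and 59.7% for all other TRAV genes (53.6 to 65.6).

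The repeated cells came from few chains. Of the 20 distinct WT chains 13 were in 1 cell, and of the 18 in p53 KO 12 were. Chains in 3 or more cells numbered 3 in each library, and held 18 of 39 WT and 21 of 39 p53 KO cells. Their CDR3 bases are shown because the cells per alpha chain and the missing beta chains described next rest on them. Capitals mark bases outside both the longest start shared with a chain of the same V gene and another J gene, and the longest end shared with a chain of the same J gene and another V gene, over both libraries.
WT TRAV3D-3 TRAJ17, 8 cells: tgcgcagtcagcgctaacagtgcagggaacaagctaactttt
WT TRAV3D-3 TRAJ23, 7 cells: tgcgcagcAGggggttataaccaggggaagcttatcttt
WT TRAV3-3 TRAJ43, 3 cells: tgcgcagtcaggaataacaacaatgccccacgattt
p53 KO TRAV3-3 TRAJ39, 11 cells: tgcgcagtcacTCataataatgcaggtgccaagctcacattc
p53 KO TRAV3D-3 TRAJ23, 5 cells: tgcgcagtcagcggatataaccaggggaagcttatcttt
p53 KO TRAV3D-3 TRAJ7, 5 cells: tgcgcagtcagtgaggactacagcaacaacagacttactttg

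In 4 of these 6 chains every base lay in a stretch shared with another chain of its V or J gene, and in the other 2 chains 2 bases did not. A shared stretch can include added bases that match by coincidence, so this is a description of sharing, not a count of germline bases.

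The chain found in most cells of the family was TRAV3-3 with TRAJ39 in p53 KO, at 4 to 12 UMIs per cell with a median of 6. In 7 of its 11 cells no beta chain was found. Each of the other 4 cells held a different beta chain. These were TRBV12-2 with TRBJ1-2 (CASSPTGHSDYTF), TRBV2 with TRBJ1-3 (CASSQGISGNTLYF), TRBV29 with TRBJ2-7 (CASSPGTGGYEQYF) and TRBV13-1 with TRBJ1-5. The TRBV29 and TRBV13-1 chains were each found in 3 p53 KO cells: 1 with this alpha chain, 1 with another alpha chain only and 1 with none.

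The p53 KO chain of TRAV3D-3 with TRAJ23 (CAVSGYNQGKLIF) also had unlike beta partners, at 1 to 6 alpha UMIs in its 5 cells. It was found with TRBV20 and TRBJ2-7 in 2 cells, with TRBV1 and TRBJ1-4 in 1, with TRBV14 and TRBJ2-5 in 1 and with no beta chain in 1. The cell with TRBV1 and the cell with TRBV14 each held a second alpha chain, while 0 of the 11 cells of the TRAJ39 chain did. By contrast, all 5 cells of the TRAV3D-3 chain with TRAJ7 (CAVSEDYSNNRLTL) held TRBV5 with TRBJ1-1 (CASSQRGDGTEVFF), at 2 to 14 beta UMIs. A second beta chain, of TRBV29, was in 1 of them.

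Among family chains found with a beta chain in 2 or more cells, 2 of 5 in p53 KO and 0 of 6 in WT had no beta chain common to all those cells. The same held for 11 of 38 other TRAV chains in p53 KO (28.9%, 15.4 to 45.9) and for 2 of 38 such WT chains (5.26%, 0.644 to 17.7). Alpha chains with unlike beta partners were thus also found outside the family, in both libraries.

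In WT the leading chain was TRAV3D-3 with TRAJ17 (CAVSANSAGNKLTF), at 4 to 12 UMIs per cell. It lacked a beta chain in 5 of 8 cells, and the remaining 3 all held the same TRBV13-1 chain with TRBJ2-2. One of these also held a TRBV3 chain. The next, TRAV3D-3 with TRAJ23 (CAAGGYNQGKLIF), held 1 TRBV13-2 chain with TRBJ2-2 in 6 of 7 cells and no beta chain in 1. A second beta chain, TRBV20 with TRBJ1-1 (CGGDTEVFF), was in 1 of the 6 at 2 UMIs. TRBV13-2 here includes the combined name TRBV12-2+TRBV13-2 of the deposited contigs, all 70 of which carry the CDR1 and CDR2 residues of TRBV13-2.

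The TRBV13-2 chain of that clone was also found in 1 further WT cell with another alpha chain of the same V and J genes, TRAV3D-3 with TRAJ23 (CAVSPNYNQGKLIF). Its CDR3 bases were the same in all 7 cells and are printed because they tie the 2 alpha chains together.
TRBV13-2 TRBJ2-2 CDR3: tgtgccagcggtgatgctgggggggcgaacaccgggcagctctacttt

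That cell had 5 UMIs of its alpha chain and 2 of the beta chain. The cells of the TRAJ17 and TRAJ23 clones had different beta V genes, but both used TRBJ2-2.

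**Figure D2:**
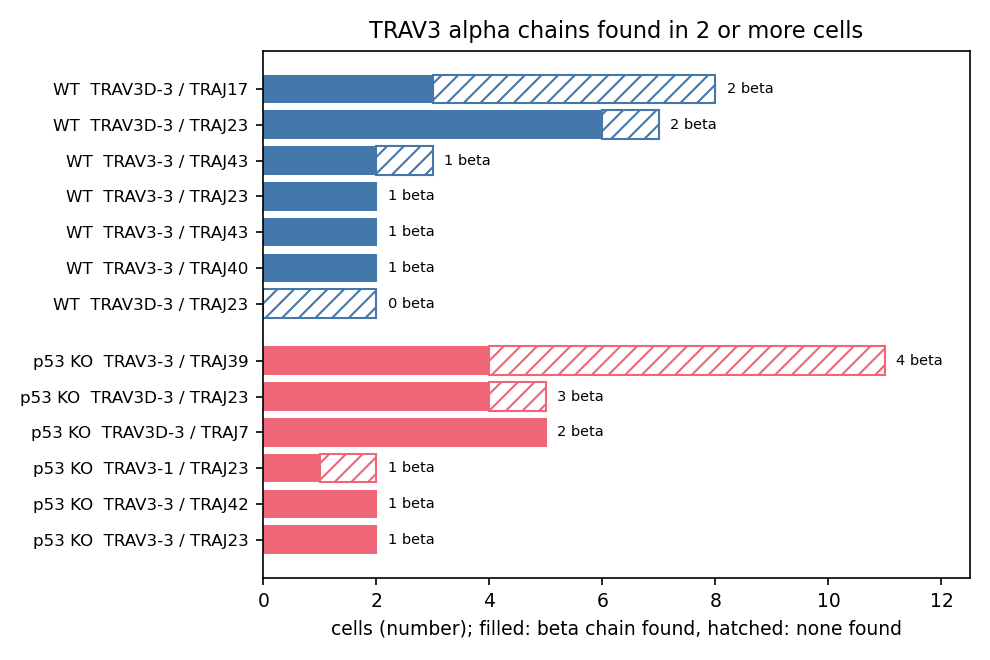
Cells (x axis) holding each TRAV3 alpha chain that was found in 2 or more cells of the WT (blue) or p53 KO (red) library, named by V and J gene, with the number of distinct beta chains found beside each bar. Filled parts are cells with a beta chain and hatched parts cells with none, and the longest bar is the 11-cell TRAV3-3 and TRAJ39 chain with 4 beta chains.

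A beta chain was not found in 11 of 39 TRAV3 cells in WT (28.2%, 15.0 to 44.9) and in 9 of 39 in p53 KO (23.1%, 11.1 to 39.3). For all other TRAV genes the share was 21.9% of WT cells (17.5 to 26.8). It was 11.9% of p53 KO cells (8.31 to 16.4), and the intervals overlap in each library. The gene that carried these cells differed between libraries. In WT it was TRAV3D-3, with 10 of 24 cells (41.7%, 22.1 to 63.4) against 1 of 13 for TRAV3-3 (7.69%, 0.195 to 36.0). In p53 KO it was TRAV3-3, with 7 of 18 cells (38.9%, 17.3 to 64.3) against 1 of 17 for TRAV3D-3 (5.88%, 0.149 to 28.7). All 7 of the TRAV3-3 cells had the TRAJ39 chain, without which the family's p53 KO share was 2 of 28 (7.14%). Without the 8-cell TRAJ17 chain the WT share was 6 of 31 (19.4%). Counted over distinct chains, 3 of 20 in WT and 0 of 18 in p53 KO were never seen with a beta chain. The nearest family, TRAV6, lacked a beta chain in 7.89% of its WT cells (1.66 to 21.4) and in 32.5% of its p53 KO cells (18.6 to 49.1). For TRAV9 the WT share was 12.8% (4.30 to 27.4), and 1 of 25 p53 KO cells lacked one (0.101 to 20.4%). For TRAV14 the WT share was 20.4% (10.6 to 33.5), and 1 of 30 p53 KO cells lacked one (0.0844 to 17.2%). All of these intervals overlap that of TRAV3 in the same library.

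Depth of the alpha chain differed with a missing beta chain, in opposite directions in the 2 libraries. Family cells with no beta chain had a median of 4 alpha UMIs in WT and 7 in p53 KO, against 8 and 4 in family cells with a beta chain. The medians without a beta chain rest on 11 WT and 9 p53 KO contigs. Of these, 5 in WT belong to the TRAJ17 chain and 7 in p53 KO to the TRAJ39 chain. Contigs of other TRAV genes had the same directions, with medians of 4 without and 5 with a beta chain in WT, and 4.5 and 3 in p53 KO. The median over all TRAV3 contigs was 7 UMIs in WT, with a range of 1 to 18, and 4 for other TRAV contigs. In p53 KO it was 4, with a range of 1 to 12, and 3 for others. The part of depth in the missing beta chains was not tested.

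The J partners differed between TRAV3D-3 and TRAV3-3, which lie at different distances from the J genes. J alpha genes are numbered so that high numbers lie nearest to the V genes: TRAJ43 starts at 54174742, TRAJ40 at 54177921 and TRAJ23 at 54196081. TRAV3D-3, which starts 1205 kb before TRAJ40, joined TRAJ5 to TRAJ30 in its 10 WT chains and TRAJ5 to TRAJ23 in its 9 p53 KO chains. Any chain so named that comes from TRAV3N-3 would start at 53283669, between TRAV3D-3 and TRAV3-3. None of these 19 chains used a J gene numbered 40 or above, which allows shares of up to 30.8% in WT and 33.6% in p53 KO by the exact interval. TRAV3-3, 512 kb before TRAJ40, used such J genes in 4 of 8 WT chains (50.0%, 15.7 to 84.3) and 3 of 6 p53 KO chains (50.0%, 11.8 to 88.2). The intervals of the 2 genes overlap within each library. With the chains of both libraries pooled across genotype they lie apart, at 0 of 19 chains (0 to 17.6%) for TRAV3D-3 and 7 of 14 (50.0%, 23.0 to 77.0) for TRAV3-3. The J genes of TRAV3-3 ran from TRAJ7 to TRAJ45 in WT and from TRAJ23 to TRAJ56 in p53 KO, and both V genes used TRAJ7 and TRAJ23. This split was noticed in the data, so the pooled intervals describe it and do not test it.

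The genes at both ends had few chains. TRAV3-4, nearest to the J genes, had 1 chain in each library, with TRAJ49 in WT and TRAJ48 in p53 KO. TRAV3-1, the farthest, had TRAJ45 in WT and TRAJ23 and TRAJ31 in p53 KO. On either side of the limit of 40 lay the TRAJ40 chain of WT and the TRAJ39 chain of p53 KO, both with TRAV3-3.

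The same order along the locus was seen in the other TRAV genes. Those that start no nearer to the J genes than TRAV3D-3 used J genes numbered 40 or above in 8 of 78 WT chains (10.3%, 4.53 to 19.2) and 4 of 43 p53 KO chains (9.30%, 2.59 to 22.1). Those between TRAV3D-3 and TRAV3-3 did so in 22.3% of 130 WT chains (15.5 to 30.4) and 16.3% of 92 p53 KO chains (9.42 to 25.5). Those from TRAV3-3 on did so in 26 of 43 WT chains (60.5%, 44.4 to 75.0) and 17 of 30 p53 KO chains (56.7%, 37.4 to 74.5). In both libraries the interval of the last class lies apart from those of the first and second. Each gene was placed by its deposited name. Whether near-identical copies in the duplicated stretches were told apart was not checked for these genes either. TRAV3D-3 and TRAV3-3 encode the same CDR1 and CDR2, so the same loops were found with J genes numbered 40 or above through TRAV3-3 and not through TRAV3D-3.

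**Figure D3:**
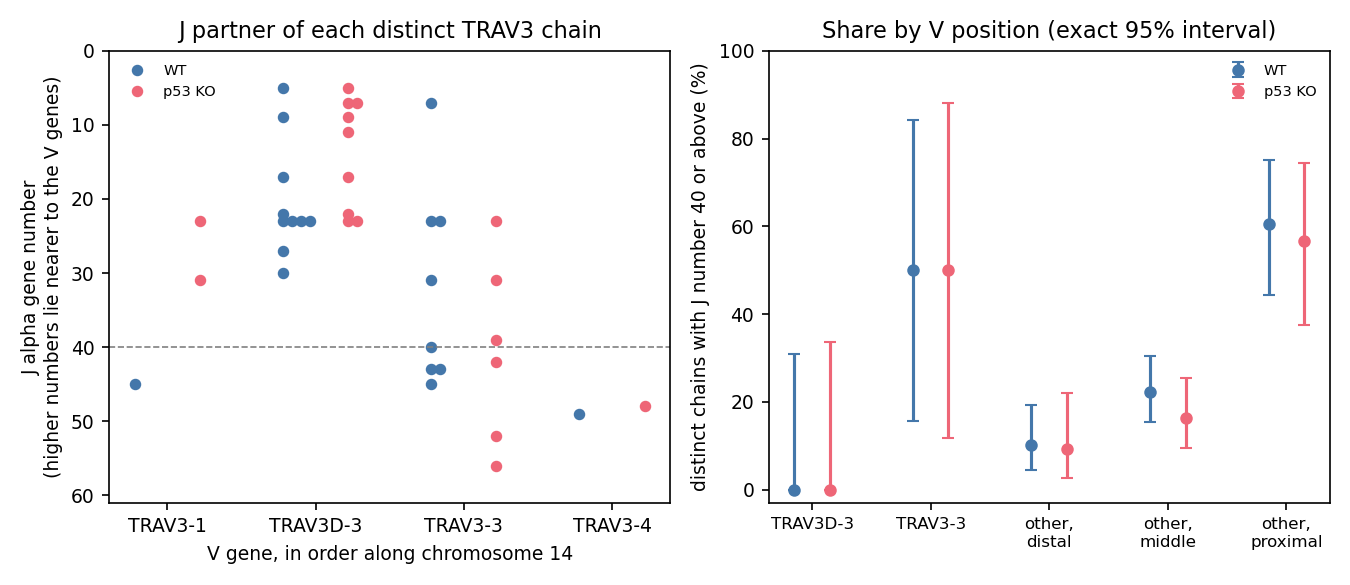
Left, J alpha gene number (y axis, with low numbers, farthest from the V genes, at the top) of each distinct TRAV3 chain by V gene, with a dashed line at 40; the 19 TRAV3D-3 chains all lie above the line, at 5 to 30. Right, share of distinct chains with a J number of 40 or above (y axis, percent, with exact 95% intervals) for TRAV3D-3, TRAV3-3 and other TRAV genes that start up to TRAV3D-3 (distal), between TRAV3D-3 and TRAV3-3 (middle) or from TRAV3-3 on (proximal), in WT (blue) and p53 KO (red).

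TRAJ23 was the leading partner in both libraries. The share was chosen for report after its values were seen. TRAJ23 made up 6 of 20 distinct TRAV3 chains in WT (30.0%, 11.9 to 54.3). In p53 KO it made up 4 of 18 (22.2%, 6.41 to 47.6). For other TRAV genes TRAJ23 was in 14 of 251 WT chains (5.58%, 3.08 to 9.18) and 14 of 165 p53 KO chains (8.48%, 4.72 to 13.8). The intervals lie apart in WT and overlap in p53 KO. Over WT cells with both chains they overlap, at 29.4% (10.3 to 56.0) and 6.42% (3.56 to 10.5). In the nearest families the WT share was 5.56% for TRAV6 (0.680 to 18.7), 10.3% for TRAV9 (2.19 to 27.4) and 11.1% for TRAV14 (3.11 to 26.1). Their p53 KO shares were 15.0% (3.21 to 37.9), 14.3% (1.78 to 42.8) and 10.0% (1.23 to 31.7). Each of these intervals overlaps that of TRAV3 in the same library. TRAJ23 was joined to TRAV3D-3 in 4 WT and 2 p53 KO chains, to TRAV3-3 in 2 and 1, and to TRAV3-1 in 1 p53 KO chain. By cells, 14 of 39 family cells carried it in WT and 10 of 39 in p53 KO. The next partners were TRAJ43 and TRAJ45 in WT and TRAJ7 and TRAJ31 in p53 KO, with 2 distinct chains each. In all, the family used 13 of the 42 J genes seen in WT and 13 of the 40 in p53 KO.

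Several TRAV3 CDR3 loops were written by more than 1 nucleotide sequence. The family had 32 different CDR3 residue sequences in its 38 distinct chains, and 5 of the 32 were repeated. They are shown because the same loop was met with different bases. Capitals mark bases that differ from the first line of each set.
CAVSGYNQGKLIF, WT TRAV3-3, 1 cell: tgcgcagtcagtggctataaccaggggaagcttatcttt
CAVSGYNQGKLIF, p53 KO TRAV3D-3, 5 cells: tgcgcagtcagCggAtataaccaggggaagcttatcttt
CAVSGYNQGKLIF, p53 KO TRAV3-3, 2 cells: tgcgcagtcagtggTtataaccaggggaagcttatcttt
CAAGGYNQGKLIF, WT TRAV3D-3, 7 cells: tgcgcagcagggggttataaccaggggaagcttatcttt
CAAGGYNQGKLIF, WT TRAV3D-3, 2 cells: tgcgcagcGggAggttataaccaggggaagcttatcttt
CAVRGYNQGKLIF, WT TRAV3D-3, 1 cell: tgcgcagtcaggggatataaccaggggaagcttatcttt
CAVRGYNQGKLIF, p53 KO TRAV3-1, 2 cells: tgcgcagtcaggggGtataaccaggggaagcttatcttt
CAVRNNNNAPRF, WT TRAV3-3, 3 cells: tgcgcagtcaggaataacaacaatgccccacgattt
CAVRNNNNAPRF, WT TRAV3-3, 2 cells: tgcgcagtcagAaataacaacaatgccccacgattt
TRAJ5 set, WT TRAV3D-3, 1 cell: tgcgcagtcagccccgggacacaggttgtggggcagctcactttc
TRAJ5 set, p53 KO TRAV3D-3, 1 cell: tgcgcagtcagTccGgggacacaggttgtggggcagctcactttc

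The first 3 sets use TRAJ23 and the fourth TRAJ43. From 1 to 2 bases differed from the first sequence of each set. Of the 5 residue sequences, 3 were found in both libraries, but 0 chains with the same V gene and CDR3 bases were. The 2 cells of the second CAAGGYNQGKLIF sequence held no beta chain, so their receptor could not be compared with that of the 7-cell clone.

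In 2 of these sets some chains also had beta partners of the same V and J genes. For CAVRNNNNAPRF this was within the WT library. The sequence in 3 cells was paired with TRBV13-3 and TRBJ2-1 (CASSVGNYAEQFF) in 2 of them, and the sequence in 2 cells with TRBV13-3 and TRBJ2-1 (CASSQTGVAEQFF) in both. For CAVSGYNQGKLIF it was across libraries: its TRAV3-3 chain was found with TRBV13-2 and TRBJ2-4 in 1 WT cell and, with other CDR3 bases in both chains, in 2 p53 KO cells. The third and largest chain of that set, TRAV3D-3 in 5 p53 KO cells, had none of this pairing and was found with TRBV20, TRBV1 and TRBV14. The beta CDR3 bases are printed to show that the loops themselves differ.
TRBV13-3 with the 3-cell alpha chain: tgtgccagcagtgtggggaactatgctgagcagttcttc
TRBV13-3 with the 2-cell alpha chain: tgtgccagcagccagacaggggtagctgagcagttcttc
TRBV13-2 with WT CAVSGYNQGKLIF: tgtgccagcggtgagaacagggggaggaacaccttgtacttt
TRBV13-2 with p53 KO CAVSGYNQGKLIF: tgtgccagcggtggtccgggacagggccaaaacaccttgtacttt

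The TRBV13-3 chains were also found without an alpha chain, in 2 further cells and 1 further cell. Both sets were picked out with their values known. The 2 p53 KO cells held the same beta chain bases, which the deposited file lists as separate clonotypes under TRBV13-2 and TRBV12-2+TRBV13-2.

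The CDR3 alpha of TRAV3 chains was close in length to that of other chains. Its mean was 13.35 residues in WT (SD 0.875 over 20 distinct chains) and 13.3 in p53 KO (SD 1.64 over 18), against 13.5 (SD 1.31 over 251) and 13.6 (SD 1.48 over 165) for other TRAV genes. Lengths ran from 12 to 15 in WT and from 10 to 17 in p53 KO. The shortest family loop was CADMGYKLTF, a TRAV3D-3 chain with TRAJ9, and the longest a TRAV3-3 chain with TRAJ42 of 17 residues, both in p53 KO.

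**Figure D4:**
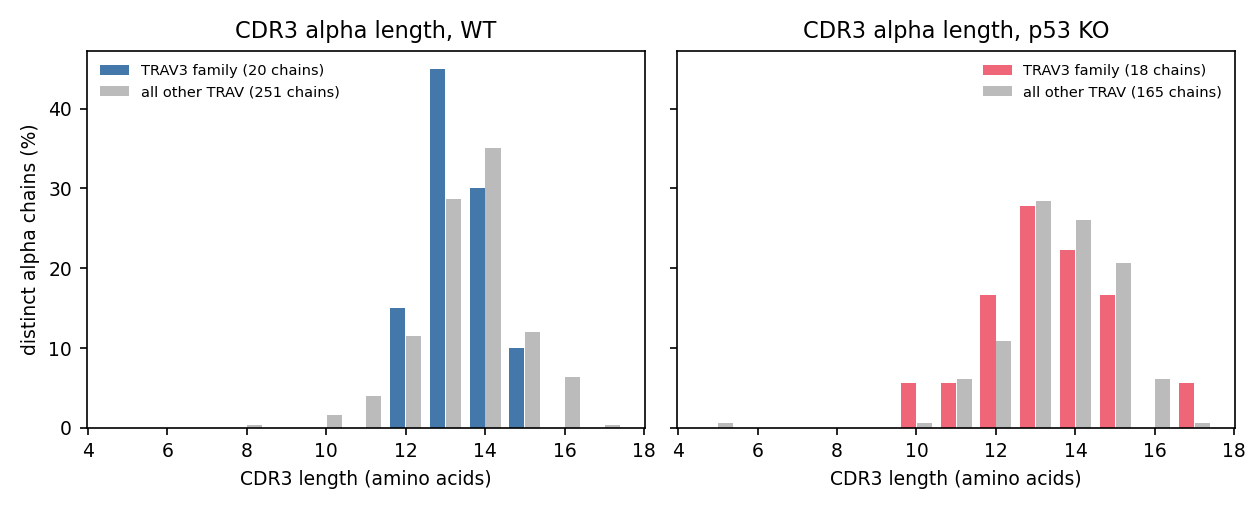
Share of distinct alpha chains (y axis, percent) by CDR3 length in amino acids (x axis) for the TRAV3 family (coloured) and all other TRAV genes (grey), in WT (left) and p53 KO (right). The most frequent TRAV3 length was 13 residues in both libraries, at 45.0% and 27.8% of chains.

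The loops mostly began with CAV, residues that the V segment largely encodes. A CAV start was found in 15 of 20 WT chains (75.0%, 50.9 to 91.3). In p53 KO 14 of 18 had it (77.8%, 52.4 to 93.6). Other TRAV genes had it in 13.9% of WT chains (9.91 to 18.9). Their p53 KO share was 13.3% (8.55 to 19.5), so the family's interval lies above that of the others in each library. The remaining family chains began with CAA (2 in each library), CAE, CAT or CGF in WT, and CAD or CAG in p53 KO. CAVR, with arginine as the fourth residue, was in 7 of 20 WT chains (35.0%, 15.4 to 59.2) and 1 of 18 in p53 KO (5.56%, 0.141 to 27.3). These intervals overlap. Other TRAV genes had CAVR in 0.797% of WT chains (0.0966 to 2.85), and their p53 KO share was 3.03% (0.991 to 6.93), apart from the family's interval in WT and overlapping it in p53 KO. CAVS was in 7 WT chains (35.0%, 15.4 to 59.2) and 9 p53 KO chains (50.0%, 26.0 to 74.0) of the family. Other TRAV genes had it in 8.76% (5.57 to 13.0) and 6.67% (3.37 to 11.6), apart from the family's interval in both libraries. In each CAVS and CAVR chain of the family the fourth codon began with the bases ag. How much of that codon the V segments encode was not determined, because their germline sequences were not used. The family was chosen by V gene, so its CAV, CAVS and CAVR shares are not independent of that choice.

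The residue counts were chosen after their values were seen. The middle of the loop, taken without its first 3 and last 4 residues, held a basic residue (lysine, arginine or histidine) in 11 of 20 WT chains (55.0%, 31.5 to 76.9) and 3 of 18 p53 KO chains (16.7%, 3.58 to 41.4). Of other TRAV chains 31.5% held one in WT (25.8 to 37.6), and the p53 KO share was 44.8% (37.1 to 52.8). The family thus lay above them in WT and below them in p53 KO, with overlapping intervals in both. The middle starts at the fourth residue, so the 7 WT chains and 1 p53 KO chain with CAVR are among those with a basic residue. The 2 counts are therefore not separate results. An acidic residue was in 3 WT chains (15.0%, 3.21 to 37.9) and 5 p53 KO chains (27.8%, 9.69 to 53.5) of the family, against 34.3% and 39.4% of other chains. Aromatic residues were in 60.0% and 55.6% of family chains and 50.6% and 54.5% of others.

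The beta partners were spread over many TRBV genes. Each combination of an alpha and a beta chain counts here as 1 receptor, and cells with 2 beta chains give 2. The family had 21 receptors in WT with 11 TRBV genes and 27 in p53 KO with 14. TRBV13-2 led in both, with 5 of 21 in WT (23.8%, 8.22 to 47.2) and 5 of 27 in p53 KO (18.5%, 6.30 to 38.1), against 14.5% of 234 (10.3 to 19.7) and 11.7% of 196 receptors (7.59 to 17.1) for other TRAV genes. In WT, 2 of the TRBV13-2 receptors share 1 beta chain, found with both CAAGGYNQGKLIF and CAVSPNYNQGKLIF. Both also enter the TRBV13 count below. In WT, TRBV1 followed with 3 receptors (14.3%, beside 10.7% for other TRAV genes), and TRBV13-1, TRBV13-3 and TRBV15 were among those with 2. In p53 KO, TRBV20 had 4 (14.8%), and TRBV12-2 and TRBV29 had 3 each (11.1%). Of other TRAV receptors 3.06%, 6.12% and 3.57% held these genes, and the intervals overlap for each gene. Of the TRBV20 receptors, 2 came from 1 cell with 2 beta chains (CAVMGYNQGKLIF). Another came from a cell that also gave a TRBV12-2 receptor (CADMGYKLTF). The TRBV13 genes together were in 9 of 21 WT receptors (42.9%, 21.8 to 66.0) and 6 of 27 in p53 KO (22.2%, 8.62 to 42.3), beside 26.9% and 23.5% for other TRAV genes. The intervals of the family and the other genes overlap in each library.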

How the data were processed

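The 4 samples of the series are 2 gene expression and 2 TCR libraries, and the 2 TCR libraries were analysed. The authors deposited filtered contigs per library, with reads and UMIs per contig as whole-number counts and contig length in bases, per the file headers. Counts were not normalized. Cell Ranger 6.1.1 and mm10 were used, per the submitters' processing notes. Which TCR reference they used is not given in the sources. Every contig carried the flags for a called cell, high confidence, full length and a productive chain. Every alpha contig of a cell was counted. A beta chain counts as missing where a cell has no TRB contig in the filtered file. A minimum on the UMIs of a contig was set only as an alternative.

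Members, lists and comparisons were chosen with earlier results of these data known. Named were all genes of the family, its chains in 3 or more cells, its 3 leading TRAJ and TRBV genes per library (up to 5 with ties), and the 3 TRAV families nearest in share of cells. Other features named were chosen after their values were seen. All 73 WT and 66 p53 KO TRAV names matched RefSeq. No doublet caller was run. Possible multiplets (at least 2 TRB or at least 3 TRA contigs), 14 in WT and 22 in p53 KO, stayed in. Of these, 4 in each library had a TRAV3 chain. The counting was tested on simulated data. Alternatives are listed in the closing section. Counting used Python 3.11.15 with pandas 2.3.3 and numpy 2.4.6. Intervals came from scipy 1.17.1, and figures from matplotlib 3.10.9.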

Additional observations from a re-analysis of the deposited data

How the results depend on the processing

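The 6 planned TRAV3 values per library (shares of cells and of distinct chains, share without a beta chain, share of cells in repeated chains, CDR3 length, and J genes numbered 40 or above) gave 66 values under other settings. Of these, 61 stayed within the interval of the reported value (for length, within 1 SD over chains) and 5 did not. All 5 concern the share of cells without a beta chain. Keeping contigs of at least 3 UMIs gave 47.2% (WT) and 44.1% (p53 KO), since beta contigs are dropped too, and other TRAV genes moved likewise, to 41.9% and 27.0%. Over distinct chains it was 15.0% and 0%. Without the chain found in most cells it was 7.14% in p53 KO. The settings were the top alpha contig per cell, 3 or more UMIs, no possible multiplets, cells with both chains, leaving out the chain found in most cells, and counting cells, distinct chains or deposited clonotypes. Chosen after seeing the data, TRAV3D-3 stayed at 0% and TRAV3-3 at 50.0% to 60.0% for J genes numbered 40 or above. TRAJ23 stayed at 29.4% to 33.3% in WT and 20.0% to 26.7% in p53 KO. No paired analysis was possible because each genotype has 1 library. The number of cells limits all shares.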

Other observations

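A second alpha chain was found in 4 of 39 TRAV3 cells in WT (10.3%, exact 95% interval 2.87 to 24.2) and in 7 of 39 in p53 KO (17.9%, 7.54 to 33.5). Cells with another TRAV gene had 1 in 10.5% of WT cells (7.38 to 14.4) and 13.4% in p53 KO (9.59 to 18.1). None of the 24 WT TRAV3D-3 cells held a second alpha chain, which allows a share of up to 14.2% by the exact interval, while 4 of 17 p53 KO TRAV3D-3 cells did (23.5%, 6.81 to 49.9). These intervals overlap.

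Of the 32 CDR3 residue sequences of the family, 1 was also found with another TRAV family. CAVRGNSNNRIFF with TRAJ31 was joined to TRAV3-3 in 1 WT cell and to TRAV9D-1 in 1 p53 KO cell.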
